A study of Mus musculus with 6 samples.

Results

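The replication-dependent histone genes encode the linker histone H1 and the core histones H2A, H2B, H3 and H4 that package newly copied DNA. They were taken as every gene whose deposited name begins with Hist1h, Hist2h, Hist3h or Hist4h, which gave 70 of the 38553 genes in the table. The numeral after Hist names the chromosomal cluster, with 56 genes in Hist1, 10 in Hist2, 3 in Hist3 and 1 in Hist4. By protein there were 6 H1, 20 H2A, 19 H2B, 12 H3 and 13 H4 genes. The naming rule also takes in the pseudogenes *Hist1h2aj*, *Hist1h2al* and *Hist3h2bb-ps* and the testis histone genes *Hist1h1t*, *Hist1h2aa* and *Hist1h2ba*. The rule uses names and no measured value, although it was set with earlier results of these data known.

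In a dividing cell most of these genes are transcribed during S phase, when the coactivator Npat drives them, and their mRNAs are the main mRNAs of animal cells that end without a poly(A) tail. Their 3′ end is instead cut just after a short hairpin, the histone stem-loop, which is bound by Slbp and processed with the help of the U7 small nuclear RNA. Some histone genes can also be cleaved and polyadenylated at a signal further downstream, and replication-independent variants such as *H3f3a* and *H2afz* are made from ordinary polyadenylated mRNAs throughout the cell cycle. Libraries prepared from poly(A)+ RNA are therefore not a measure of all histone mRNA in a tissue.

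RNA-Seq was performed on poly(A)+ RNA from microdissected craniofacial tissue of mouse embryos at E12.5. The 3 control embryos carried floxed *Rbfox2* on both alleles (Rbfox2 flox/flox) with no Cre, and the 3 *Rbfox2* mutants carried the same floxed alleles together with the Pax3 Cre allele (Pax3Cre/+:Rbfox2 flox/flox). The stock had a mixed genetic background. Cre is active in Pax3-lineage cells, which include the neural crest, so in this bulk tissue the other cells keep *Rbfox2*, and the mutants also differ from the controls in carrying Cre in place of a Pax3 allele. The values are FPKM, fragments scaled to gene length and to all mapped fragments, so they may be compared between genes, and the number of reads behind each is unknown. The labels call the samples independent biological replicates, and p-values measure the spread between them.

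The sequences at the 3′ ends of the most abundant histone genes are shown first, since they show which of the 2 features, stem-loop and poly(A) signal, the annotated transcript holds. They were read from GENCODE M21 transcripts on GRCm38 and run 5′ to 3′ in the sense of the mRNA. In the first set the capitals mark the histone stem-loop, with 6 bases in each arm of the stem and 4 bases in the loop.
Hist3h2ba, chr11:58949344-58949373, plus strand: ccaaaGGCTCTTTTCAGAGCCaccttccaa
Hist1h4i, chr13:22040957-22040986, minus strand: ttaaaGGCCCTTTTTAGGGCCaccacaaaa
Hist3h2a, chr11:58955167-58955196, plus strand: ccaaaGGCTCTTTTCAGAGCCacccacaac
Hist1h1c, chr13:23739507-23739536, plus strand: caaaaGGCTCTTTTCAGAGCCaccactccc
Hist1h3c, chr13:23745038-23745067, minus strand: aaaaaGGCTCTTTTAAGAGCCacctaagat

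In the second set the capitals mark a poly(A) signal, AATAAA or ATTAAA, found within the last 50 bases of the transcript.
Hist3h2ba, chr11:58949499-58949526, plus strand: atggtattAATAAAtttggttcaatttt
Hist1h4i, chr13:22040637-22040664, minus strand: ctgtttacATTAAAagtattctatgcta
Hist3h2a, chr11:58956789-58956816, plus strand: atatgcccAATAAAataagagtacgtgt
Hist2h2be, chr3:96223709-96223736, plus strand: ttattattAATAAAgttaccgattagtt
Hist1h1c, chr13:23740334-23740361, plus strand: atgcttctAATAAAaagcgtttagtttt

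Both features were searched on the sense strand only, and a match describes the annotated sequence and not the RNA in these libraries. The annotated transcript runs on past the stem-loop by 169 bases in *Hist3h2ba*, 330 in *Hist1h4i*, 840 in *Hist1h1c* and 1643 in *Hist3h2a*, but by 74 in *Hist1h3c*. The identifiers of 63 of the 70 histone genes were found in GENCODE M21, 60 of them under the same symbol. Those of *Hist2h2aa1* and *Hist2h2aa2* had each other's symbol. That of *Hist2h2bb* belonged to *Gm42743*, a long noncoding RNA gene, so its sequence is not that of a histone mRNA. Of the 63, 13 had both the stem-loop and a poly(A) signal, 27 the stem-loop only and 4 the signal only. The other 19 had neither, and *Hist2h2bb* is counted among them. The stem-loop was in 40 of the 63, against 6 of 21834 other protein-coding genes (0.0275%), of which *H2afx* is a histone variant gene and *Trim17* overlaps *Hist3h2a* on the same strand. A poly(A) signal was in 17 of the 63, against 17041 of the other protein-coding genes (78.0%). Both comparisons are between unlike measures. A histone gene was scored on 1 transcript, while another gene counted if any of its protein-coding transcripts had the feature. The 63 also include pseudogenes and the noncoding *Gm42743*. The stem-loop came in 7 forms, and 22 genes shared the form of *Hist3h2ba*, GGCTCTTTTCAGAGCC.

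Most histone genes were detected at low levels in these libraries and a few were abundant. Of the 70, 61 had an FPKM above 0 in at least 1 sample and 53 in all 6, while 9 were listed at 0 throughout. The mean FPKM over the 6 samples was above 0.1 in 56 histone genes (80%, against 46.2% of all genes in the table) and above 1 in 25 (35.7%, against 35.6%). Above an FPKM of 5 there were 8 (11.4%, against 26.7% of all genes), above 10 there were 4, and above 50 only *Hist3h2ba*. The median histone gene stood at a mean FPKM of 0.624, and the median of all genes was 0.0415. Histone genes were thus mostly present in the table above the level of the median gene but seldom among the genes over FPKM 5.

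**Figure D1:**
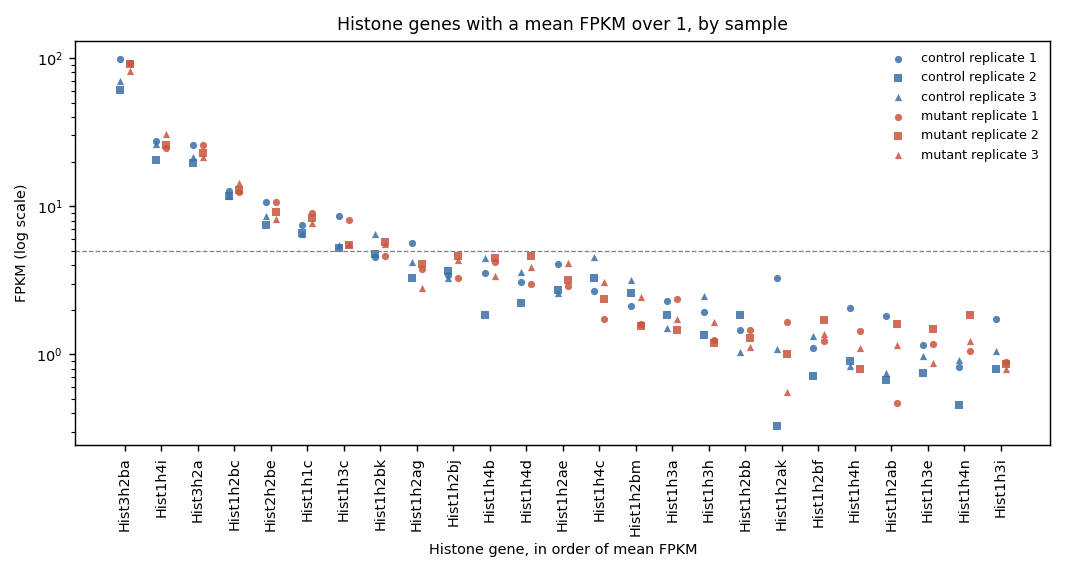
FPKM on a log axis of the 25 histone genes with a mean FPKM over 1, in order of the mean, with 1 symbol for each of the 3 control (blue) and 3 mutant (red) samples and a dashed line at FPKM 5. *Hist3h2ba* stood above the rest in every sample, at 61.1 to 98.2, and control and mutant symbols were mixed for most genes.

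*Hist3h2ba* (ENSMUSG00000056895, chromosome 11 from 58948920 to 58949533, a single exon) encodes an H2B and was the most abundant histone gene in all 6 samples. Its FPKM was 98.2, 61.1 and 70.2 in control replicates 1, 2 and 3 and 92.8, 91.1 and 82.3 in mutant replicates 1, 2 and 3. Control replicate 1 was the highest and control replicate 2 the lowest, so the groups overlapped, and the mutants were closer together than the controls. The group means were 76.5 ± 19.3 and 88.7 ± 5.63 (SD, n = 3 each). The other H2B genes over FPKM 5 were *Hist1h2bc*, *Hist2h2be* and *Hist1h2bk*. *Hist1h2bc* (chromosome 13 from 23684199 to 23692908), whose annotated transcript has 2 exons and neither 3′ feature, had 12.6, 11.7 and 11.7 in controls and 12.4, 12.9 and 14.3 in mutants. Control replicates 2 and 3 lay below all mutants, while control replicate 1 lay among them. *Hist2h2be* (chromosome 3 from 96221119 to 96223738), an H2B gene known for its expression in olfactory neurons, had a poly(A) signal and no stem-loop in its annotated transcript. It was at 10.6, 7.44 and 8.53 in controls and 10.6, 9.15 and 8.23 in mutants. The first replicates of both groups were highest.

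The most abundant H4 gene was *Hist1h4i* (chromosome 13 from 22040636 to 22041362), with 27.4, 20.6 and 26.1 in controls and 24.8, 25.9 and 30.6 in mutants. Control replicate 2 was the lowest and mutant replicate 3 the highest, and the groups overlapped. The most abundant H2A gene was *Hist3h2a* (chromosome 11 from 58954685 to 58956830), which lies close to *Hist3h2ba* in the Hist3 cluster. It was at 25.9, 19.4 and 21.4 in controls and 25.9, 22.8 and 21.4 in mutants, so that replicate numbers 1 and 3 gave the same value, to 3 digits, in both groups. Of the 100-base stretches of its transcript, 29.8% are also in a transcript of *Trim17*, and *Gm44313* lies on the other strand, so its FPKM is uncertain. Its order among the samples was close to that of *Hist3h2ba*, with control replicate 1 among the highest and control replicate 2 the lowest.

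*Hist1h3c* (chromosome 13 from 23744973 to 23745602) was the most abundant H3 gene, at 8.62, 5.21 and 5.49 in controls and 8.11, 5.50 and 5.56 in mutants. Both first replicates were above the other 4 samples, and the groups overlapped. *Hist1h1c* (chromosome 13 from 23738808 to 23740367) encodes the linker histone H1.2 and was the most abundant H1 gene, at 7.49, 6.56 and 6.45 in controls and 9.07, 8.27 and 7.69 in mutants. All 3 mutants were above all 3 controls. In the Hist4 cluster, the H4 gene *Hist4h4* had at most 0.219, in control replicate 1.

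**Figure D2:**
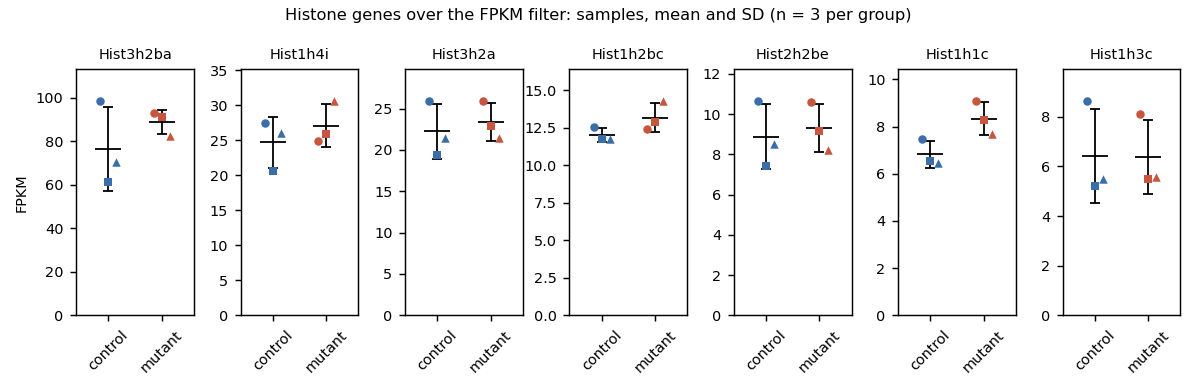
FPKM of the 7 histone genes over the FPKM filter in each control (blue) and mutant (red) sample, with circles, squares and triangles for replicates 1, 2 and 3 and black bars for the group mean and SD (n = 3 each). The groups overlapped in 6 of the 7 genes, and in *Hist1h1c* the mutants, at 7.69 to 9.07, lay above the controls, at 6.45 to 7.49.

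Summed over all 70 genes, the histone FPKM of the controls was 260, 181 and 208, and that of the mutants 235, 236 and 228. The controls spread over the whole range and the mutants sat inside it. The means were 216 ± 40.2 and 233 ± 4.24 (SD, n = 3 each), and the mutant mean was 1.08 times the control mean, a difference smaller than the spread of the controls. Within replicate numbers 1, 2 and 3 the ratio of mutant to control was 0.904, 1.30 and 1.10, and leaving out control replicate 2 brought the ratio of the means to 0.996. These sums were 0.0319% to 0.0470% of all FPKM in a sample. The 11 replication-independent histone variant genes summed to 3403 to 4144 in controls and 3836 to 3936 in mutants, so the 70 genes together reached 5.32% to 6.28% of the level of these 11.

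A few genes carried the sum. *Hist3h2ba* and the other 6 genes over the filter made up 72.2% to 78.1% of it in each sample, and the 3 genes of the Hist3 cluster 44.6% to 50.6%. H2B genes gave 53.2% to 56.1%, with a mean summed FPKM of 117 in controls and 130 in mutants. H4 genes followed at 39.1 and 42.8, H2A at 35.4 and 36.0, H3 at 14.99 and 13.8, and H1 at 9.75 and 10.5. In each of the 5 protein families the summed values of the groups overlapped.

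**Figure D3:**
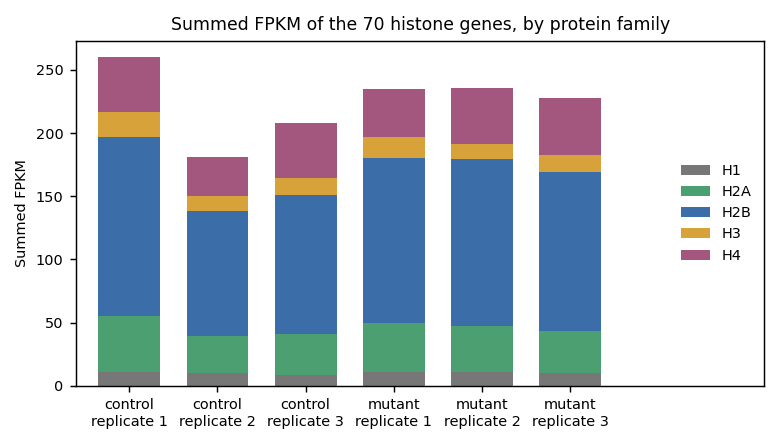
Summed FPKM of the 70 histone genes in each of the 6 samples, stacked by protein family from 0. H2B was the largest share in every sample, at 53.2% to 56.1%, and the tallest and shortest bars were control replicates 1 and 2, at 260 and 181.

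Among the 63 genes with an annotated transcript, the classes by 3′ feature overlapped over most of their range. The 13 genes with both features had mean FPKM from 0 to 82.6 with a median of 0.586, and the 27 with the stem-loop only had a median of 0.844 and reached 6.41. The 4 with the signal only had a median of 0.342 and reached 9.10, and the 19 with neither had a median of 0.352 and reached 12.6. Among the most abundant genes, 5 of the 8 genes over FPKM 5 had a poly(A) signal, against 17 of the 63. Over all genes, however, those with the signal had a median of 0.586 and those without it 0.610. The class is a property of 1 annotated transcript per gene, and was not tested against the RNA ends in these libraries. The transcripts with neither feature were short, with a median of 393 bases, against 912 for those with both and 528 for those with the stem-loop only. A transcript annotated without its full 3′ end cannot show the features, so their absence here does not show that the gene lacks them.

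**Figure D4:**
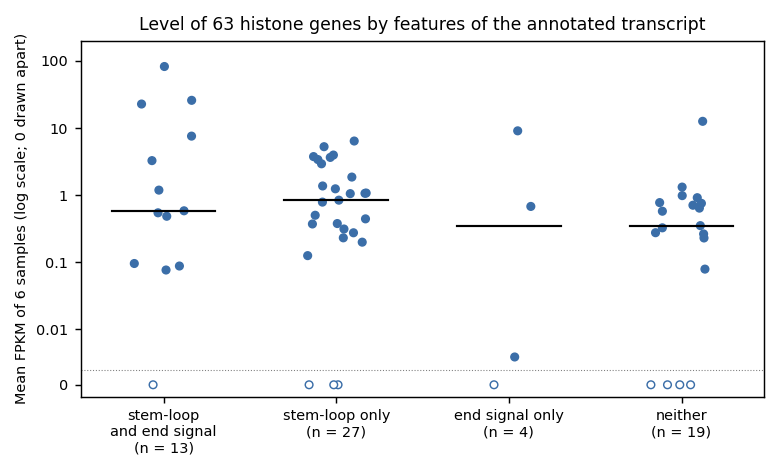
Mean FPKM over the 6 samples (log axis, with open circles for genes at 0 drawn below the dotted line) of the 63 histone genes found in the annotation, by the features of the annotated transcript, with black lines at the medians. The 3 highest genes had both features, led by *Hist3h2ba* at 82.6, but the medians ran only from 0.342 to 0.844.

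The genes with the least sequence of their own had the lowest median level. Histone genes are near copies of each other, and reads that match several copies may be dropped or split, a step that the sources used here do not describe. In 13 genes fewer than 20% of the 100-base stretches were unique among all annotated transcripts. Of these 13, 5 were listed at 0 in every sample, namely *Hist2h2aa1*, *Hist2h2aa2*, *Hist1h4m*, *Hist1h2bq* and *Hist2h3c1*, and the median mean FPKM was 0.0793. The 27 genes with 20% to 80% unique stretches had a median of 1.07, and the 23 with over 80% a median of 0.577. The gene at that last median was *Hist2h2bb*, whose identifier is that of a long noncoding RNA gene in the annotation used. The other genes listed at 0 were *Hist1h2ba*, *Hist1h2aa*, *Hist2h2ab* and *Hist1h2al*. For near copies a value of 0 may stand for reads that could not be placed, and it was not tested whether such genes were transcribed.

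Other RNAs made without a poly(A) tail were looked at in the same libraries. Of 10 listed noncoding RNA genes, 6 were at 0 in all samples, and why they were at 0 was not tested. The FPKM filter was passed by 3, *Rn7sk*, *Rmrp* and *Rpph1*, with mean FPKM of 25.1, 22.7 and 7.21. The summed FPKM of the list was 121, 58.1 and 38.6 for control replicates 1, 2 and 3, and 34.0, 45.04 and 34.0 for the mutants. Control replicate 1, the sample with the highest summed histone FPKM, was thus also the highest for these RNAs, at 2.20 times the mean of the 6 samples. *Rmrp*, the RNA of the mitochondrial RNA processing ribonuclease, gave 63.02 of that 121, against 9.54 to 19.8 in the other samples. The other samples did not share this order: control replicate 2 was next for these RNAs, at 58.1, but had the lowest summed histone FPKM. Whether carried-over untailed RNA had a part in the histone values of control replicate 1 was not tested.

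Mutants and controls were compared gene by gene on log2(FPKM + 1) with limma over the 10061 genes whose FPKM exceeded 5 throughout at least 1 of the groups. On this scale the change of low genes is understated, and in bulk tissue fewer expressing cells and less RNA per cell cannot be told apart. The filter kept 7 histone genes, left out 54 that were above 0, and removed the 9 at 0. Just inside it was *Hist1h3c*, with a lowest value of 5.21, and just outside was *Hist1h2bk*, with 4.57, 4.75 and 6.46 in controls and 4.64, 5.74 and 5.53 in mutants. The targeted gene went with the labels: *Rbfox2* was at 58.4, 65.0 and 61.3 in controls and 38.1, 36.3 and 34.3 in mutants.

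After adjustment in limma, none of the 7 histone genes passed 0.05, and neither did any other gene tested (0%). Each of the 7 had an adjusted p of 1.0. With no adjustment 1 of the 7 passed 0.05, *Hist1h1c*, against 167 of the genes tested (1.66%). Its mutant mean was 8.34 ± 0.692 and its control mean 6.83 ± 0.574 (SD, n = 3 each), a ratio of 1.22 and a log2 fold change of 0.25 (standard error 0.095, unadjusted p = 0.0317 from limma). It was also the only 1 of the 7 whose groups did not overlap, against 5% of the genes tested (two-sided exact permutation p = 0.10, the smallest that 3 samples against 3 can give). The mutant was higher by 0.25, 0.29 and 0.22 on the log2 scale in replicate numbers 1, 2 and 3. The unadjusted p was above 0.05 when control replicate 2 (0.0876), control replicate 3 (0.108), mutant replicate 1 (0.0979) or mutant replicate 2 (0.0702) was left out, and with median ratio scaling (0.0569). From limma it was 0.0114 with replicate number as a block and 0.00652 with a term for the first replicates. Without control replicate 1 it was 0.0150, and in replicates 2 and 3 only 0.0235, from limma. In these fits 604 to 1103 of the genes tested had an unadjusted p under 0.05. The adjusted p of *Hist1h1c* in them was 0.417 to 0.768 from limma. With a covariate for Y-linked expression, which was high in mutant replicates 1 and 2 and near 0 in the other samples, its log2 fold change was 0.15 (unadjusted p = 0.308 from limma). Y-linked expression marks male embryos, so sex was unevenly spread over the groups. In this and every other comparison of the groups, sex and genotype cannot be fully told apart.

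For *Hist3h2ba* the log2 fold change was 0.24 (standard error 0.17, unadjusted p = 0.203 from limma), and the replicates disagreed, at -0.08, 0.57 and 0.23 in replicate numbers 1, 2 and 3. Without control replicate 1 it was 0.43, with an unadjusted p of 0.00477 and an adjusted p of 0.734 from limma. In replicates 2 and 3 alone it was 0.40, with an unadjusted p of 0.00371 and an adjusted p of 0.357 from limma. Control replicate 1 thus decides the unadjusted call only. In these fits 649 and 1103 of the 10061 genes tested had an unadjusted p under 0.05. The log2 fold change was 0.13 for *Hist1h4i* (standard error 0.13), 0.12 for *Hist1h2bc* (0.082), 0.074 for *Hist3h2a* (0.12) and 0.072 for *Hist2h2be* (0.14). These 4 differences were smaller than 2 standard errors, with unadjusted p-values of 0.181 to 0.627 from limma. For *Hist1h3c* the log2 fold change was 0.0014 (standard error 0.21, unadjusted p = 0.995 from limma), and its sign depended on the scaling.

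The sign of the change was positive in all 7 histone genes over the filter, with a median log2 fold change of 0.12, against 0.0057 over all genes tested, of which 52.8% were positive. Genes that are high in 1 group pass this filter more easily, although each of the 7 was above FPKM 5 in every sample. The count is a description only. The positive sign did not extend to all histone genes above 0. With no filter, 29 of the 61 histone genes above 0 were higher and 32 lower in the mutants (47.5% higher, against 49.0% of all 23063 genes above 0), with a median of -0.0080. The 61 include the 7, so all 32 lower genes were among the 54 under the filter. Summed over the histone genes under the filter, the mutant mean was 0.965 times the control mean. Nor was the sign the same in each replicate number. Of the 7, 1 was higher in the mutant in replicate 1, 7 in replicate 2 and 5 in replicate 3, with median differences of -0.017, 0.27 and 0.22. Of the 61, 17 were higher and 43 lower in replicate 1, against 37 and 24 in replicate 2 and 36 and 24 in replicate 3.

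By protein family, without the filter, the H3 genes above 0 were lower in the mutants in 9 of 11 and the H1 genes in 4 of 6. The H2A genes were higher in 9 of 15, the H2B genes in 10 of 17 and the H4 genes in 6 of 12. The median log2 fold changes of the 5 families lay between -0.076 and 0.044.

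**Figure D5:**
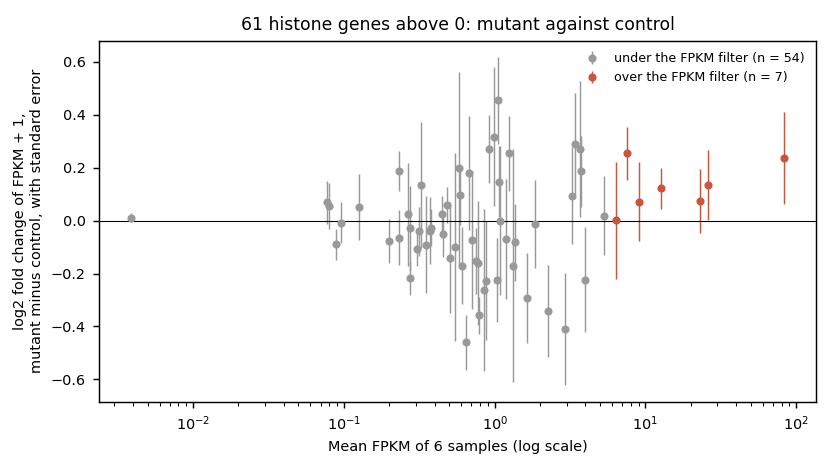
Log2 fold change of FPKM + 1, mutant minus control, against the mean FPKM (log axis) for the 61 histone genes above 0, from the limma fit with no filter, with bars for the standard error and the 7 genes over the FPKM filter in red. The red points lay at or above 0, up to 0.25, while the grey points, at lower FPKM, lay on both sides.

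Without the filter, 6 of the 61 histone genes had an unadjusted p under 0.05, against 2.87% of all genes above 0, and these were the same 6 whose groups did not overlap, against 6.34% of all genes. All but *Hist1h1c* had a mean FPKM of at most 1.06. Those below are named after their values were seen, and each had an adjusted p of over 0.05 in limma. Lower in the mutants were 3, against 3.33% of all genes with groups apart in that direction. *Hist1h1e*, which encodes the linker histone H1.4, was at 1.153, 0.947 and 0.933 in controls and 0.518, 0.560 and 0.624 in mutants. Its log2 fold change was -0.36 (standard error 0.071, unadjusted p = 0.00214 from limma). Its annotated transcript overlaps *Hist1h2be* on the same strand. The linker histone genes H1.2 and H1.4 thus stood apart between the groups in opposite directions, while the groups overlapped in every other H1 gene. *Hist2h2ac*, an H2A gene, was at 0.433, 0.257 and 0.429 in controls and 0.227, 0.152 and 0.157 in mutants, and the pseudogene *Hist3h2bb-ps* at 0.718, 1.02 and 0.962 against 0.303, 0.560 and 0.288. The other 2 genes, both higher in the mutants, were the H4 gene *Hist1h4n*, with 0.821, 0.457 and 0.918 against 1.06, 1.85 and 1.23, and the H2A gene *Hist1h2ad*, with 0.164, 0.164 and 0.122 against 0.214, 0.259 and 0.468. Of the 100-base stretches of *Hist1h4n*, 80.7% are shared with *Hist1h4m*, which was listed at 0, so reads of these 2 genes may be hard to tell apart. The reads were paired and longer than these stretches, and the share that cannot be placed was not tested.

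Sample values followed the replicate number in part. The first principal component of all genes tested carried 54.7% of the variance and set the first replicates of both groups apart from the other 4 samples. In 4 of the 7 histone genes over the filter, *Hist3h2ba*, *Hist3h2a*, *Hist2h2be* and *Hist1h3c*, both first replicates were above the other 4 samples, against 18.4% of the genes tested. Control replicate 1 was the highest sample in 27 of the 61 histone genes above 0, where it was the highest in 19.5% of all genes above 0. Control replicate 2 was the lowest in 5 of the 7, against 18.6% of the genes tested. Among the 11 variant genes, 4 also had both first replicates above the other 4 samples. They were *H2afx*, which has the stem-loop, and *H3f3b*, *H1fx* and *Cenpa*, in which it was not found, all named after their values were seen. *H2afx* was at 259, 149 and 158 in controls and 235, 172 and 164 in mutants.

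Genes that make, process or deposit histones were compared as lists. Of 16 genes for histone mRNA synthesis, 3′ end processing and decay, 15 passed the filter and 0 had an unadjusted p under 0.05 in limma (adjusted, 0), with a median log2 fold change of 0.010. *Slbp*, which binds the stem-loop, was at 70.7, 67.0 and 69.96 in controls and 66.9, 67.6 and 73.2 in mutants. Its log2 fold change was -0.00088 (standard error 0.075). *Npat* was at 10.5, 10.8 and 10.6 in controls and 10.1, 9.61 and 10.3 in mutants. The 3 mutants were below the 3 controls (two-sided exact permutation p = 0.10, again the smallest possible), but the log2 fold change of -0.078 was close to its standard error of 0.072 (unadjusted p = 0.313 from limma). The gene with the smallest p in this list was *Cstf2*, a cleavage factor subunit, with a log2 fold change of 0.086. Of 12 histone chaperone genes, 12 passed the filter and 0 had an unadjusted p under 0.05, with a median of 0.033 and the smallest p in *Asf1a*, at 0.085. Of the 11 histone variant genes, 11 passed the filter and 0 had an unadjusted p under 0.05, with a median of 0.050. The log2 fold change was above 0 in 11 (52.8% of all genes tested), although the mean FPKM of *H2afj* and *H3f3b* was slightly lower in the mutants. The smallest p was that of *H2afy*, which encodes macroH2A1, at a log2 fold change of 0.13. With the replicate block its unadjusted p was 0.0492 from limma.

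Cell cycle genes gave no unadjusted p under 0.05 in the fit without a block. Of 23 S phase genes 23 passed the filter and 0 had an unadjusted p under 0.05 in limma, with a median log2 fold change of 0.0080 and the smallest p in the DNA ligase gene *Lig1*, at 0.11. Of 13 G2 and M phase genes 13 passed it and 0 had an unadjusted p under 0.05, with a median of 0.018 and the smallest p in *Cdc20*, an activator of the anaphase-promoting complex, at 0.17. With the replicate block the unadjusted p of *Cdc20* was 0.0215 and its adjusted p 0.809 from limma. The S phase genes summed to 1366, 1434 and 1550 in controls and 1292, 1496 and 1619 in mutants. The first replicates had the lowest S phase sum of their group, although single genes differed, and control replicate 1 was the highest control for *Pcna* and *Rrm2*, named after their values were seen.

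Markers of other cell types in the dissected tissue were read in the same samples. The 8 erythroid genes with a value summed to 10560, 5214 and 5785 in controls and 10602, 7109 and 11102 in mutants. Of the 7 over the filter, 0 had an unadjusted p under 0.05. Control replicates 2 and 3 were the lowest for the erythroid sum and for the histone sum. Mutant replicate 3 had the highest erythroid sum but the lowest histone sum of the mutants. Of 9 neuronal genes 3 had an unadjusted p under 0.05, all higher in the mutants, with sums of 772 to 818 in controls and 885 to 977 in mutants. Of 10 cranial mesenchyme genes 1 had an unadjusted p under 0.05, *Col1a1*, which was lower, with sums of 554 to 635 and 501 to 580. Skeletal muscle genes summed to 159 to 401 in controls and 151 to 230 in mutants, epithelial genes to 121 to 211 and 121 to 168, and endothelial genes to 56.3 to 80.3 and 61.9 to 72.5, with 0 genes at an unadjusted p under 0.05 in each of these lists. No marker of any list was at 0 in all samples, and the 10 cranial mesenchyme markers, which the label of the tissue calls for, passed the filter. The part of cell composition in the histone values was not tested.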

How the data were processed

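Poly(A)+ libraries (TruSeq Stranded) of 3 control and 3 mutant samples were grouped by their labels. The authors aligned reads with STAR to GRCm38 and deposited FPKM values per gene. The submitters' processing notes also name FastQC 0.11.4 and Cuffdiff. The annotation, strand setting and treatment of multiply mapped reads behind the FPKM are not given in the sources used here, so overlapping, antisense and near-identical genes are uncertain. The whole table and the sample files held the same values (0 differences). Depth per value is unknown, and no counting intervals were given. Histone transcripts are short, which makes the length correction of FPKM less exact for them.

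Genes over FPKM 5 in all control or all mutant samples (10061) were tested on log2(FPKM + 1) by limma (version 3.58.1, R 4.3.3), using an intensity trend, no covariates and Benjamini-Hochberg adjustment over all genes tested. Tested on simulated data for mutant against control with 10061 genes, the fit recovered 89% of changes of 1 and 96% of changes of 2 on the log2 scale. It also called 14 unchanged genes. The simulated noise was independent between genes, without the differences between samples that many genes share in the data. Changes as small as those of the histone genes tested, at most 0.25, were not simulated. In the data the adjusted p of *Rbfox2* was 0.138 from limma, at a log2 fold change of -0.75. For single values an exact permutation test, two-sided, was used.

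Members and lists, the term for the first replicates and the filter were chosen with earlier results of these data known. Genes named were the 6 histone genes with the highest mean, the 5 tested ones with the smallest p, the highest of each protein family and cluster, *Rbfox2*, *Slbp* and *Npat*, and the gene with the smallest p of each list that is not a cell type. Others are said to have been chosen after their values were seen, apart from genes listed only as at 0 or beside the filter. After subtracting group means, samples sharing number 1, 2 or 3 correlated across genes at 0.64, 0.26 and 0.51. Each was over 0.1, so the numbers were taken to pair the samples, although samples with different numbers correlated at up to 0.40 (control 3 with mutant 2). The samples numbered 2, at 0.26, correlated less than that, so these values do not single out that pair. This pairing comes from the values alone. Alternatives were a pseudocount of 0.1, median ratio scaling, quantile normalization, the replicate block, a filter of 1 or none, no trend, a Y-linked covariate, a term for the first replicates, replicates 2 and 3 only, *Hist3h2ba* left out of the sum, and each sample left out. Counting the genes above 0 by direction was added after seeing the data. Stem-loops and poly(A) signals were searched in GENCODE M21 transcripts.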

Additional observations from a re-analysis of the deposited data

How the results depend on the processing

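Over all genes tested, the count with an unadjusted p under 0.05 in limma was 167. It was 604 with the replicate block, 304 with a filter of 1, 663 with no filter, 611 with a term for the first replicates, 1103 in replicates 2 and 3 only and 78 to 649 with 1 sample left out. The count with an adjusted p under 0.05 was 0, and it was 3 with the term for the first replicates, 4 in replicates 2 and 3 only and 0 to 1 with 1 sample left out, the 1 being without mutant replicate 3. The count of histone genes with an unadjusted p under 0.05 was 1. It was 0 with median ratio scaling and with the Y-linked covariate, 2 with a filter of 1 and in replicates 2 and 3 only, 6 with no filter and 0 to 2 with 1 sample left out. The replicate block left it at 1. Among the 16 single genes followed under every alternative, it changed the unadjusted call of *H2afy*, *Cdc20* and *Rmrp*, which passed 0.05, and no other. The median log2 fold change of the histone genes tested was 0.12, turned to -0.0080 with no filter, where 61 genes enter, and was 0.012 to 0.201 with 1 sample left out. The ratio of summed FPKM was 1.08, was 0.996 to 1.199 with 1 sample left out (0.996 without control replicate 2) and 1.03 without *Hist3h2ba*.

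Small differences changed sign, and the causes were not tested. *Hist3h2a* was at -0.043 with the Y-linked covariate and -0.014 to 0.18 with 1 sample left out, the lowest without control replicate 2. *Hist2h2be* was at -0.084 with the covariate and between -0.034 and 0.20 with 1 sample left out, below 0 without control replicate 2 (-0.034) or mutant replicate 1 (-0.015). *Hist1h3c* was at -0.0027 with median ratio scaling, -0.0037 with quantile normalization, -0.15 with the covariate, and -0.16 to 0.201 with 1 sample left out, below 0 without control replicate 2, control replicate 3 or mutant replicate 1. *Slbp* was at 0.082 with the covariate, 0.039 in replicates 2 and 3 only, and -0.042 to 0.023 with 1 sample left out, above 0 without control replicate 1, control replicate 3, mutant replicate 1 or mutant replicate 2. *Hist1h1c* stayed above 0 in all 16 alternatives, with adjusted p-values of 0.417 to 1.0 from limma. The scalings moved the median of all genes by less than 0.1 on the log2 scale. Of the values for single genes under the alternatives, 221 kept their direction and side of the unadjusted threshold, 17 changed sign, 12 newly passed it and 6, all of *Hist1h1c*, no longer did. Those that newly passed were of *Hist3h2ba*, *H2afy*, *Cdc20*, *Rmrp* and *Lig1* (unadjusted p from limma 0.0329 in replicates 2 and 3 only and 0.0446 without mutant replicate 1).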
